A study of Homo sapiens with 6 samples.

Results

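Genes of the adipocyte lineage were examined in SW872, an established human liposarcoma cell line. They were the rows of the deposited count table whose gene name was PPARG, PPARA, PPARD, RXRA, CEBPA, CEBPB, CEBPD, FABP4, FABP5 or LPL, that is 10 of 57773 rows. Only 8 of these 10 genes passed the filter on low counts and were tested, among 16290 genes tested in all. In the Apatinib group, 3 replicates of SW872 cells were treated with 18 μM Apatinib for 24 h. The control group held 3 replicates of untreated SW872 cells. Both groups were one cell line in RPMI-1640 with serum, no vehicle was named for the controls, and no animal or tumor tissue was part of this experiment. Apatinib is a tyrosine kinase inhibitor of VEGFR-2, and the comparison asked which mRNAs of the adipocyte program differed after the drug. The total counts of the 6 libraries ranged from 17043314 to 22067558. The counts of control replicates 1 and 2 lay closer together than those of any other pair of one group, where the chi-square averaged over genes was 2.27 against 18.2 to 44.5 (sampling noise alone gives about 1), so results were also computed with these controls summed.

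Adipocyte differentiation is driven by a cascade of transcription factors. C/EBPβ and C/EBPδ are induced early and switch on PPARγ and C/EBPα, which then maintain each other's expression. PPARγ binds DNA as a heterodimer with an RXR receptor and activates genes for lipid uptake and storage, among them FABP4 and LPL. PPARα and PPARδ belong to the same receptor family and are best known for genes of fatty acid oxidation. Liposarcoma cells carry parts of this program without completing it. In bulk RNA, fewer cells of a type and less RNA per cell cannot be told apart.

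Promoter sequences were available from RefSeq for 6 of the 10 genes. The 4 shown are those of the 3 PPAR genes, for a comparison within that family, and of CEBPB, the most abundant of the 10 genes, as the 250 bases before the most upstream annotated start on the GRCh38.p14 plus strand. Capitals mark AGGTCA (the half-site of nuclear receptors), CCAAT or TGACG (the half-site of cyclic AMP response elements), on either strand. TTGCNNAA (a core of C/EBP sites) and TATAAA were also searched and were not in these 4 windows, against 9.05% and 10.7% of all windows that hold them. The windows are chr3:12287118-12287367 for PPARG, chr22:46150276-46150525 for PPARA, chr6:35342308-35342557 for PPARD and chr20:50190333-50190582 for CEBPB.
PPARG: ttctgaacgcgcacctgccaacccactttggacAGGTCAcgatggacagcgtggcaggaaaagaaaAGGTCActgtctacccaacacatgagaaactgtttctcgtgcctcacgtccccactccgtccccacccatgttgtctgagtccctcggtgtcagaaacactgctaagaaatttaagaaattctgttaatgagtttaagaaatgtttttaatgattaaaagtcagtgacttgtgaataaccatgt
PPARA: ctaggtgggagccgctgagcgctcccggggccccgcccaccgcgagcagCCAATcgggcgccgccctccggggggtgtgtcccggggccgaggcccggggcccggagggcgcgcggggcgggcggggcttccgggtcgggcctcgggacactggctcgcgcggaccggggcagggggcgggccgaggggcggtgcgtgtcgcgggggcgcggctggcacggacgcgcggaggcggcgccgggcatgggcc
PPARD: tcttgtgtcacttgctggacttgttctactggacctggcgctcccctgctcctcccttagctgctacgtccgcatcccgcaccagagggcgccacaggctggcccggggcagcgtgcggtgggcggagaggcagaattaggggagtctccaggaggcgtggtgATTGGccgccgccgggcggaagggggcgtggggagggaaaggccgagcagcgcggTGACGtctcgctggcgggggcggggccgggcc
CEBPB: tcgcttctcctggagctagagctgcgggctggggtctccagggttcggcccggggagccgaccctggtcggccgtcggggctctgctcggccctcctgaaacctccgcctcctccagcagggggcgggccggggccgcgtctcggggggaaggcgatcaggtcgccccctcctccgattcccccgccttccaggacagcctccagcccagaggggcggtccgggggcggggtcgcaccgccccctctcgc
RefSeq gave 6 windows for PPARG, 2 for PPARA, 1 for PPARD and 2 for CEBPB, and only the most upstream of each was read. Which start is used in SW872 cells was not tested. The PPARG window shown held 2 matches to AGGTCA, which was present in 12.1% of 35116 promoter windows of this length. PPARA and PPARD each held 1 CCAAT, found in 32.0% of all windows, and PPARD held 1 TGACG, found in 21.2%. None of these letters was found in the CEBPB window. The windows differed in base composition, with a GC content of 44.8% in PPARG, 84.4% in PPARA, 70.8% in PPARD and 75.6% in CEBPB. Of the other 2 windows, that of CEBPA held 1 TATAAA and that of RXRA held none of the motifs. A match is a run of letters and not a site shown to be bound.

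Levels between genes were compared in FPKM, the values normalised to transcript length and library size that the authors deposited. In the control group the order was CEBPB, RXRA, PPARG, PPARD, CEBPD, FABP5, PPARA and LPL, with CEBPA and FABP4 last. CEBPB averaged 45.7 FPKM, RXRA 25.9 FPKM and PPARG 20.5 FPKM in the control group, so the partners of the PPARγ and RXRα heterodimer were both well expressed. PPARD averaged 9.40 FPKM and CEBPD 7.75 FPKM. FABP5, PPARA and LPL averaged 3.49, 3.29 and 1.90 FPKM. Of the neighbors in the control order, only FABP5 and PPARA had overlapping values among the 3 replicates. With Apatinib, CEBPB was still the most abundant at 75.5 FPKM on average, but the values of RXRA and PPARG overlapped, as did those of CEBPD and PPARD, of PPARA and LPL, and of LPL and FABP5.

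**Figure D1:**
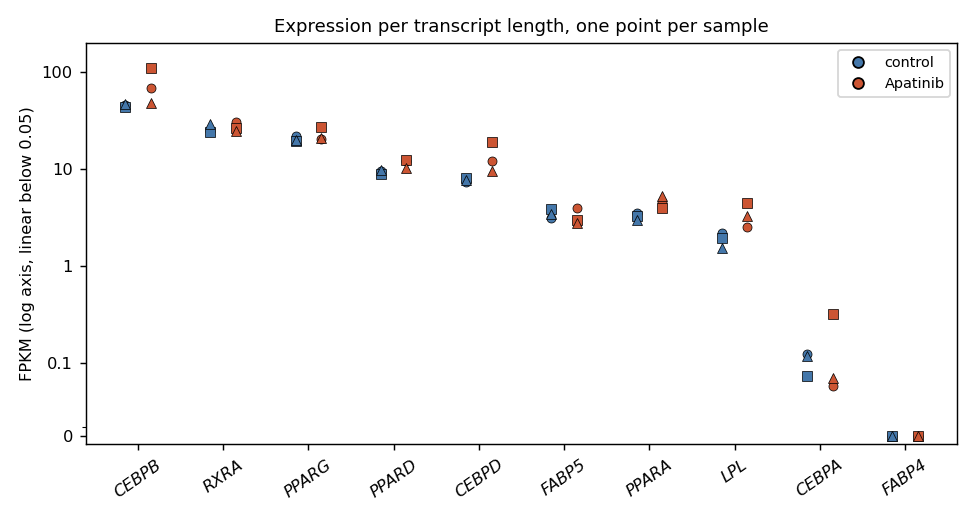
FPKM of the 10 genes on a log axis that is linear below 0.05, with one point per sample (circle, square and triangle for replicates 1, 2 and 3). CEBPB was highest in both groups, CEBPA lay between 0.0579 and 0.319 FPKM, and FABP4 was listed at 0 in every sample.

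Within families, PPARG was the leading PPAR transcript. It made up 61.1% to 62.6% of the summed FPKM of the 3 PPAR genes in the control group and 55.0% to 62.2% in the Apatinib group. PPARD made up 27.2% to 29.8% and 28.3% to 32.7%, and PPARA 9.12% to 10.4% and 9.17% to 14.3%. Among the C/EBP genes A, B, D, E and G, CEBPB held 73.0% to 77.8% of the summed FPKM in the control group and 72.6% to 77.5% in the Apatinib group. Among the RXR genes, RXRA held 58.2% to 58.6% in the control group and 52.9% to 57.8% in the Apatinib group, and nearly all of the rest was RXRB.

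The late factor C/EBPα and its target FABP4, the fatty acid binding protein that marks fat cells, gave no counts. CEBPA (ENSG00000245848) and FABP4 (ENSG00000170323) had 0 counts in all 6 libraries and were not tested. FABP4 was also listed at 0 FPKM in every sample, and its 0 counts allow a level of up to 0.137 to 0.175 CPM (3 counts, counting error only). CEBPA was not: its FPKM was 0.0579, 0.319 and 0.0713 in the treated samples (in the order of replicates 1 to 3) against 0.125, 0.0738 and 0.120 in the untreated ones. The groups overlapped, and Apatinib replicate 2 was the highest. The count and FPKM values thus treated the reads of CEBPA differently, and its 0 counts were not read as absence. Of 25177 rows with 0 counts in all 6 libraries, 779 had an FPKM above 0 in every sample. In GENCODE 29, exons of CEBPA overlap genes on the opposite strand. Overlap with exons of another gene, on either strand, was found for 74.4% of the 496 rows with 0 counts and FPKM above 0 that are listed there, against 47.0% of the 19172 rows with both counts and FPKM above 0. The part of overlap in the 0 counts was not tested.

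The state of the cells was read from markers of mature adipocytes, which cannot check their tissue of origin. Of 20 such markers, 8 were tested and 12 were too low to test. ADIPOQ, which encodes the hormone adiponectin, had 0 counts in every library. LEP, CIDEA, CIDEC and PCK1 averaged under 0.05 CPM in both groups. PLIN1, the coat protein of large lipid droplets, averaged 1.35 ± 0.295 CPM with the drug against 0.886 ± 0.0684 CPM without it (SD, n = 3 each). The most abundant markers per length were PNPLA2, the main triglyceride lipase, and G0S2, its inhibitor, with means of 37.3 and 37.2 FPKM over the 6 samples. The summed level of the 20 markers was 135 to 188 CPM with Apatinib and 159 to 172 CPM in the control. LGALS12, the lipid synthesis enzyme DGAT2, the lipase gene LIPE, the glucose transporter gene SLC2A4 and CFD were measured at lower levels, with means of 5.67, 3.97, 1.65, 1.57 and 2.08 FPKM over the 6 samples. In all, 7 of the 20 markers had a mean above 1 FPKM and 13 were below it, among them ADIPOQ, LEP and PLIN1. Of 15 markers of adipose progenitors, 12 were tested, led by CD44 and ENG with 320 and 162 FPKM on average. PDGFRB and DLK1 averaged 31.7 and 15.2 FPKM. COL1A2, NT5E, COL1A1, PDGFRA and THY1 averaged 5.84, 4.85, 4.04, 1.97 and 1.35 FPKM. The rest were below 1 FPKM, namely COL3A1 (0.864), LUM (0.570), CD34 (0.316), DPP4 (0.0252), PI16 (0.00634) and DCN (0.00596).

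Both groups were compared on the counts with edgeR's quasi-likelihood test, and the FDR is its P value after Benjamini-Hochberg adjustment over all genes tested. A gene was called a DEG (differentially expressed gene) at FDR below 0.05 and a log2 fold change (log2FC) beyond 0.5 in either direction, where a positive log2FC means higher expression with Apatinib. Expression is given in CPM, counts scaled to a common library size with edgeR's TMM factors, always in the order of replicates 1, 2 and 3. Of the 8 tested genes, 2 were DEGs, CEBPD and LPL, and both were higher with Apatinib. Among all genes tested 11.5% were DEGs, 5.97% higher and 5.48% lower. The log2FC was above 0 in 7 of the 8 genes, against 50.3% of all genes tested. Of these 7, PPARG and RXRA each fell below 0 in 1 of the 6 fits that left out 1 replicate. The median log2FC was 0.33 against 0.00 over all genes tested. In 3 of the 8 (PPARA, CEBPD and LPL) the CPM values of the groups did not overlap, all 3 higher with Apatinib. Among all genes tested 33.2% had no overlap, 17.5% higher and 15.7% lower.

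**Figure D2:**
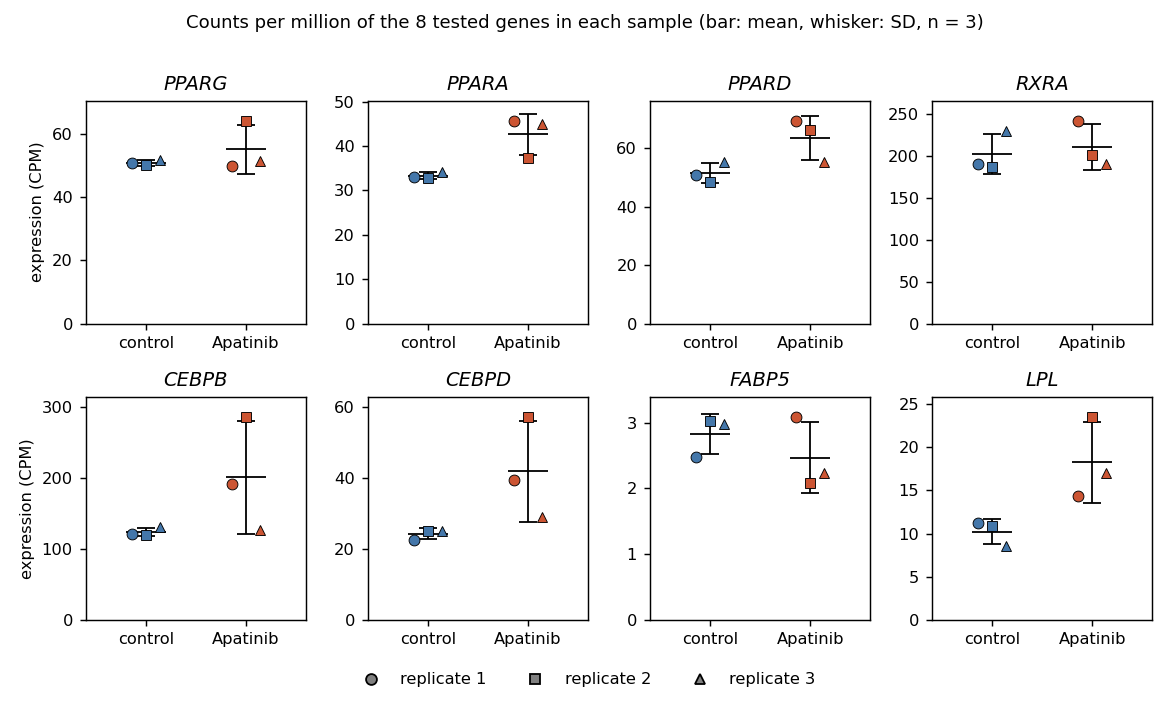
CPM of the 8 tested genes in each sample, with the mean (bar) and SD (whisker) of the 3 replicates of each group and axes that start at 0. Apatinib replicate 2 was the highest sample for PPARG, CEBPB, CEBPD and LPL, and the control values of CEBPB and CEBPD lay close together.

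C/EBPβ and C/EBPδ, the early factors of the cascade, were both higher with Apatinib on average. CEBPD (ENSG00000221869) had 39.4, 57.2 and 29.1 CPM in the treated samples against 22.6, 25.1 and 25.2 CPM in the untreated ones. Every treated sample lay above every control, with a gap of 3.94 CPM between the nearest samples. CEBPD rose 1.72-fold, at a log2FC of 0.79 (standard error 0.208, 95% interval 0.33 to 1.24, edgeR FDR 0.0330). This call was lost in 4 of the 6 fits that left out 1 replicate. With all 6 libraries 1866 genes were DEGs, against 275 without control replicate 1, 300 without control replicate 2 and 292 with these controls summed. Most calls over all genes were thus lost in those fits, not only that of CEBPD. The edgeR FDR of CEBPD was 0.0632 without Apatinib replicate 1, 0.0591 without Apatinib replicate 2, 0.132 without control replicate 1, 0.106 without control replicate 2 and 0.117 with these controls summed, and its log2FC was 0.50 without Apatinib replicate 2.

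CEBPB (ENSG00000172216) had 191, 285 and 127 CPM in the treated samples against 121, 119.5 and 131 CPM in the untreated ones. The groups overlapped, since Apatinib replicate 3 lay 3.56 CPM below control replicate 3, while the other 2 treated samples were far above all controls. In FPKM the lowest treated sample (47.6) was just above the highest control (47.3). CEBPB had a log2FC of 0.70 (standard error 0.227, 95% interval 0.21 to 1.20), and its edgeR FDR of 0.0623 missed the threshold. It passed with DESeq2 (FDR 0.0159) and without Apatinib replicate 3 (log2FC 0.95, edgeR FDR 0.0131), and the log2FC was 0.36 without Apatinib replicate 2. Exons of CEBPB overlap the antisense gene CEBPB-AS1 in GENCODE 29, so reads of both could be shared if counting ignored the strand. Over the 6 samples, log2 CPM of CEBPD was by Pearson's r most like that of CEBPB among 159 tested genes of the lists described here (r = 0.979, Spearman's rho = 0.886), followed by CD44 (r = 0.977, rho = 1.0) and NR1H2 (r = 0.964, rho = 0.943), which by rho stood above CEBPB. These samples fall into 2 groups, and the coefficients are a description.

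None of the 3 PPAR genes was a DEG. PPARG (ENSG00000132170), the master regulator of fat cell differentiation, had 50.0, 64.2 and 51.5 CPM in the treated samples against 51.0, 50.1 and 51.9 CPM in the untreated ones. Only Apatinib replicate 2 stood above the controls. For PPARG the log2FC was 0.11 (95% interval -0.17 to 0.40, edgeR FDR 0.597), and -0.0033 without Apatinib replicate 2. The interval of PPARG lies below 0.5. PPARA (ENSG00000186951), the receptor of fatty acid oxidation, had 45.6, 37.2 and 44.9 CPM in the treated samples against 32.9, 32.7 and 34.2 CPM in the untreated ones. Its groups did not overlap, and Apatinib replicate 2, the highest sample for CEBPB, CEBPD and LPL, was here the lowest of the treated samples. For PPARA the log2FC was 0.36 (95% interval 0.07 to 0.64, edgeR FDR 0.0877), which passed neither threshold. PPARD (ENSG00000112033), the widely expressed member, had 69.3, 66.2 and 55.2 CPM in the treated samples against 51.0, 48.4 and 55.3 CPM in the untreated ones. Its lowest treated and highest untreated samples were nearly equal in CPM, and in FPKM they were 10.4 and 9.77. For PPARD the log2FC was 0.30 (95% interval 0.02 to 0.58, edgeR FDR 0.142).

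RXRA (ENSG00000186350), the shared partner of the PPARs, had 241, 201 and 189.5 CPM in the treated samples against 189.5, 187 and 229 CPM in the untreated ones. One sample of each group was high, and the ranges overlapped over most of their length. The log2FC of RXRA was 0.06 (95% interval -0.24 to 0.36, edgeR FDR 0.802), and -0.05 without Apatinib replicate 1.

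**Figure D3:**
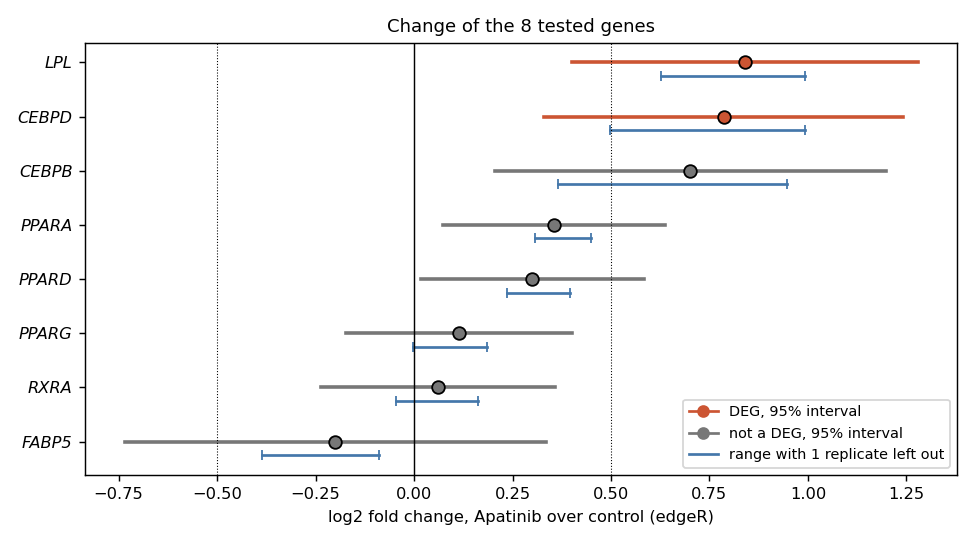
Log2 fold change of the 8 tested genes (point) with its 95% interval (thick line), and the range over 6 fits that each left out 1 replicate (thin line), with dotted lines at -0.5 and 0.5. LPL, CEBPD and CEBPB lie to the right of 0.5 with intervals above 0, of which CEBPB missed the FDR threshold, and the intervals of PPARG, RXRA and FABP5 include 0.

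Of the lipid-handling genes, LPL was a DEG and FABP5 was not. LPL (ENSG00000175445) encodes lipoprotein lipase, the secreted enzyme that frees fatty acids from circulating triglycerides. It had 14.3, 23.5 and 17.1 CPM in the treated samples against 11.3, 10.9 and 8.57 CPM in the untreated ones. All treated samples were above all controls, by at least 3.05 CPM. LPL rose 1.79-fold, at a log2FC of 0.84 (standard error 0.201, 95% interval 0.40 to 1.28, edgeR FDR 0.0237). LPL missed the threshold without control replicate 1 (edgeR FDR 0.0784), without control replicate 2 (0.0831) and with both summed (0.0807). The level of LPL was low in both groups, 3.42 ± 0.976 FPKM with the drug against 1.90 ± 0.345 FPKM without it (SD, n = 3 each). Over the 6 samples, log2 CPM of LPL was most like that of LPIN1 (r = 0.965, rho = 1.0), KLF15 (r = 0.962, rho = 0.943) and NT5E (r = 0.953, rho = 0.943).

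FABP5 (ENSG00000164687), a fatty acid binding protein of many tissues, had 3.08, 2.09 and 2.23 CPM in the treated samples against 2.48, 3.02 and 2.98 CPM in the untreated ones. The groups overlapped, with Apatinib replicate 1 the highest of all 6 samples. The log2FC of FABP5 was -0.20 (95% interval -0.73 to 0.33, edgeR FDR 0.623) at 37 to 65 counts per library, and the interval includes a decrease of 0.5. Its log2FC was -0.39, -0.09 and -0.13 without Apatinib replicates 1, 2 and 3 in turn. FABP5 has near-identical pseudogenes, whose 13 rows together held 1 to 8 counts per library, and reads shared between copies make its level uncertain. Its exons also overlap a gene on the opposite strand.

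The treated samples did not rank alike. Apatinib replicate 2 was the highest of the 3 for 4 of the 8 tested genes and replicate 1 for the other 4. Over all genes tested, replicates 1, 2 and 3 were the highest in 35.6%, 35.9% and 28.6%. Among DEGs that were higher with Apatinib the shares were 45.9%, 44.2% and 9.87%.

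The wider network was examined on lists of genes, chosen with earlier results of these data known, and their counts are a description without a set test. Over all genes tested, 275 of 16708 were DEGs without control replicate 1 and 300 of 16698 without control replicate 2. Exons of many of the genes named from these lists overlap another gene in GENCODE 29, among the DEGs SREBF1, HSPG2, NR4A1, MEIS1, NRIP1, TBL1XR1 and COL3A1 beside those given with their partner gene, and among the others DDIT3, THRA, CARM1, HDAC3, CD44, ENG and PNPLA2. Of 12 tested RXR genes and receptors that pair with RXR, 2 were DEGs (16.7%, against 11.5% of all genes tested), both higher. The median log2FC was 0.30. The count of DEGs was 0 without control replicate 1 or 2. It was 5 without Apatinib replicate 3, where 2030 of 16768 genes tested were DEGs. NR1H3, the oxysterol receptor LXRα, rose from 33.3 ± 3.96 CPM in the controls to 53.6 ± 4.78 CPM (SD, n = 3 each; log2FC 0.69, edgeR FDR 0.0119). NR4A1, an early response receptor, rose from 3.41 to 6.69 CPM (log2FC 0.97, edgeR FDR 0.0152). NR1H3 missed the threshold without control replicate 1 or control replicate 2 (edgeR FDR 0.0796 to 0.0818). NR4A1 missed the threshold without Apatinib replicate 1, control replicate 1 or control replicate 2 (edgeR FDR 0.0513 to 0.0901). The most abundant receptors, THRA and RARG, had a log2FC of 0.22 and 0.44, and neither was a DEG, although RARG passed without Apatinib replicate 3 (log2FC 0.52, edgeR FDR 0.0319). Exons of NR1H3 overlap ACP2 on the opposite strand.

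Of 4 genes listed as partners of the C/EBP family, 3 were tested and only CEBPZ was a DEG (33.3%, against 11.5% of all genes tested). The median log2FC was 0.69. CEBPZ, a family member by name, fell from 40.7 ± 12.4 to 23.1 ± 2.77 CPM (SD, n = 3 each; log2FC -0.82, edgeR FDR 0.0299), and its exons overlap CEBPZOS on the opposite strand. CEBPZ missed the threshold without Apatinib replicate 1, Apatinib replicate 2, control replicate 1 or control replicate 2 (edgeR FDR 0.0527 to 0.145). DDIT3, which dimerizes with C/EBP proteins and blocks their binding, averaged 23.4 ± 17.5 CPM with the drug against 13.7 ± 1.43 CPM (log2FC 0.77, edgeR FDR 0.205). CEBPG, named after its values were seen, averaged 72.5 ± 43.5 against 44.9 ± 8.98 CPM (log2FC 0.69, edgeR FDR 0.168). Both values rested on Apatinib replicate 2, with 43.4 CPM of DDIT3 and 123 CPM of CEBPG against 10.7 to 16.1 and 46.7 to 48.1 CPM in the other treated samples. Without it, the log2FC was -0.03 for DDIT3 and 0.09 for CEBPG, and the median of the list was -0.03.

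Of 34 other tested regulators of adipogenesis, 7 were higher and 1 was lower as DEGs (23.5%, against 11.5% of all genes tested). By edgeR, an unadjusted p under 0.05 was found for 35.3% of the 34 and for 30.6% of all genes tested. The median log2FC was 0.15 (0.03 without Apatinib replicate 2). The count of DEGs was 2, both higher, without control replicate 1 or 2. SREBF1, which encodes the lipogenic factor SREBP1, rose from 279 ± 33.7 to 608 ± 53.7 CPM (SD, n = 3 each; log2FC 1.12, edgeR FDR 0.00213). WNT5B, a secreted WNT ligand, rose from 2.90 to 8.73 CPM (log2FC 1.59, edgeR FDR 0.00358). SREBF1 and WNT5B kept their calls in all 6 fits that left out 1 replicate. The stress factor ATF4 (log2FC 0.70, edgeR FDR 0.0104) and the zinc finger factor ZNF467 (log2FC 0.90, edgeR FDR 0.0126) rose as well. ATF4 missed the threshold without control replicate 1 or control replicate 2 (edgeR FDR 0.0711 to 0.0721), and ZNF467 missed the threshold without control replicate 1 or control replicate 2 (edgeR FDR 0.0702 to 0.0727). The other higher DEGs were STAT5A, KLF15 and BMP4, named after their values were seen. STAT5A missed the threshold without control replicate 1 or 2 (edgeR FDR 0.0708 to 0.0762), KLF15 without Apatinib replicate 2 or control replicate 1 or 2 (0.0545 to 0.0973), and BMP4 without Apatinib replicate 2 or 3 or control replicate 1 or 2 (0.0572 to 0.135). The log2FC of KLF15 was 1.72, and 1.13 without Apatinib replicate 2. MEIS1, a homeobox factor, fell from 34.0 to 20.2 CPM (log2FC -0.75, edgeR FDR 0.0118). MEIS1 missed the threshold without control replicate 1 or control replicate 2 (edgeR FDR 0.0537 to 0.0583). SFRP1, a secreted WNT antagonist and the most abundant gene of the list, had a log2FC of 0.16 and was no DEG.

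Among 19 nuclear receptor coregulators, all tested, 2 were lower and 0 were higher as DEGs by edgeR (10.5%, against 11.5% of all genes tested). The median log2FC was -0.07 (-0.02 without Apatinib replicate 1 or 3 and -0.03 without control replicate 3). By edgeR 0 were DEGs without control replicate 1 or 2, and 1 without any one of the Apatinib replicates. An unadjusted p under 0.05 was found for 6 of the 19 (31.6%), close to the 30.6% of all genes tested. NRIP1, a corepressor that restrains fat burning genes, fell from 122 to 60.8 CPM (edgeR FDR 0.0159). NRIP1 missed the threshold without control replicate 1 or control replicate 2 (edgeR FDR 0.0762 to 0.0766). TBL1XR1, a subunit of the corepressor complex with HDAC3, fell from 184 to 129 CPM (log2FC -0.52, edgeR FDR 0.0408). TBL1XR1 missed the threshold without Apatinib replicate 1, Apatinib replicate 2, Apatinib replicate 3, control replicate 1 or control replicate 2 (edgeR FDR 0.0507 to 0.185). The most abundant coregulators, CARM1 and HDAC3, had a log2FC of 0.21 and -0.10, and neither was a DEG.

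**Figure D4:**
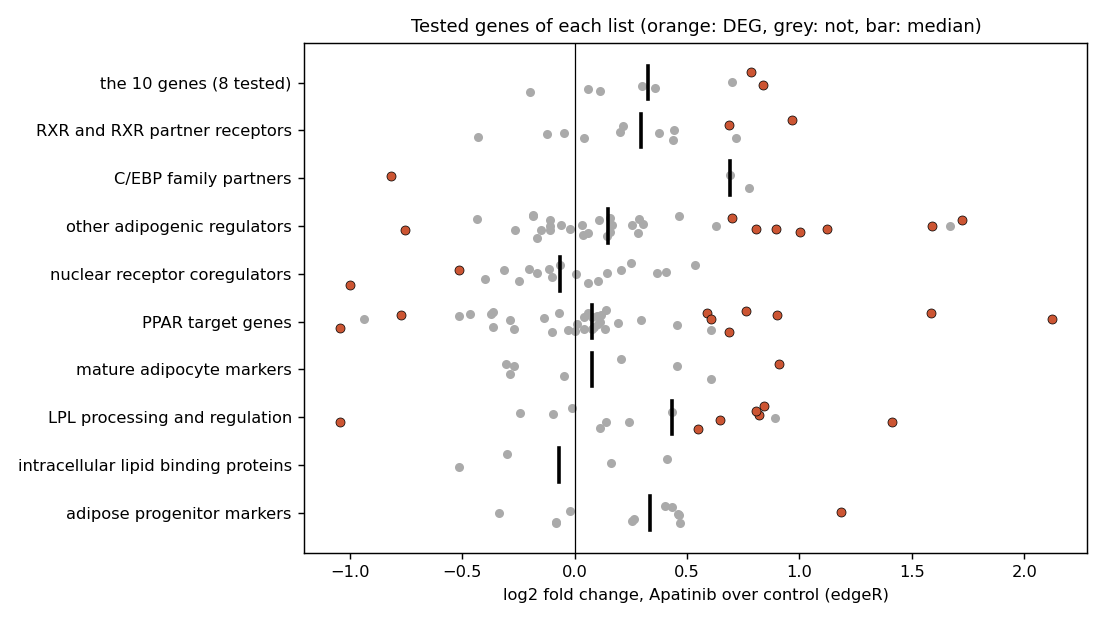
Log2 fold change of each tested gene of the 10 genes and of the 9 lists that bear on adipocyte biology, with DEGs in orange, other genes in grey and the median as a bar. The points of most lists lie on both sides of 0, and the medians of several lists moved with single libraries, most of all that of the 3 C/EBP partners (0.69, and -0.03 without Apatinib replicate 2).

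Of 39 known PPAR targets tested, 7 were higher and 2 lower as DEGs (23.1%, against 11.5% of all genes tested), and 2 were higher and 0 lower by edgeR without control replicate 1 or 2. An unadjusted p under 0.05 was found for 33.3% of them and for 30.6% of all genes tested, and the median log2FC was 0.08 (-0.02 without Apatinib replicate 1 and 0.04 without control replicate 2). The higher DEGs with the smallest P values were SCD, CYP27A1, NR1H3 and FADS2. SCD, the enzyme that makes oleate, rose from 508 ± 51.6 to 2211 ± 219 CPM (SD, n = 3 each; log2FC 2.12, edgeR FDR 3.38e-05). FADS2, a desaturase of polyunsaturated fatty acids, rose from 380.4 to 644 CPM (log2FC 0.76, edgeR FDR 0.0123), and FADS2 missed the threshold without control replicate 1 or control replicate 2 (edgeR FDR 0.0736 to 0.0796). SCD, FADS2 and NR1H3 are also known targets of other factors of lipid metabolism, and exons of FADS2 overlap FADS1 and FEN1. CYP27A1, an enzyme of oxysterol synthesis, rose from 19.1 to 35.6 CPM (log2FC 0.90, edgeR FDR 0.00478). ANGPTL4 and TXNIP were the lower DEGs. ANGPTL4, a widely used PPAR reporter that encodes an inhibitor of lipoprotein lipase, fell from 2.64 ± 0.336 to 1.28 ± 0.247 CPM (SD, n = 3 each; log2FC -1.04, edgeR FDR 0.0313), and its exons overlap RAB11B-AS1 on the opposite strand. TXNIP, which encodes an inhibitor of thioredoxin, was also lower (log2FC -0.77, edgeR FDR 0.0418). ANGPTL4 missed the threshold without Apatinib replicate 1, Apatinib replicate 3, control replicate 1, control replicate 2 or control replicate 3 (edgeR FDR 0.0609 to 0.120), and TXNIP missed the threshold without Apatinib replicate 1, Apatinib replicate 3, control replicate 1 or control replicate 2 (edgeR FDR 0.0912 to 0.127). The PPARα targets CPT1A and PDK4, named after their values were seen, had a log2FC of -0.13 and -0.37 and were no DEGs.

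Genes that process lipoprotein lipase or share its ligands and receptors gave 7 DEGs of 15 tested (46.7%, against 11.5% of all genes tested), 6 higher and 1 lower, with a median log2FC of 0.43. APOC1, an apolipoprotein that inhibits the lipase, rose from 8.49 to 22.6 CPM (log2FC 1.41, edgeR FDR 0.00213), and its exons overlap a gene on the same strand. HSPG2, the heparan sulfate proteoglycan perlecan, rose from 119 to 209 CPM (log2FC 0.81, edgeR FDR 0.00529). Without control replicate 1 or 2, the DEGs of the list numbered 3, all higher. APOC1 and HSPG2 kept their calls in all 6 fits that left out 1 replicate. PCSK5, a proprotein convertase, was also higher (log2FC 0.82, edgeR FDR 0.0147), but PCSK5 missed the threshold without control replicate 1 or control replicate 2 (edgeR FDR 0.0711 to 0.0862). ANGPTL4 was the lower DEG. The most abundant genes of the list, SDC4 and LMF2, had a log2FC of 0.43 and -0.10 and were no DEGs. GPIHBP1, which anchors the lipase to capillaries, averaged 0.191 CPM with Apatinib and had 0 counts in the controls, while the activator APOC2 had 2 counts in control replicate 1 and 0 in every other library, and neither was tested.

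Of the other intracellular lipid binding proteins, 4 of 14 were tested, and edgeR and DESeq2 each called 0 of them. By edgeR, 1 of the 4 had an unadjusted p under 0.05. CRABP2, which binds retinoic acid, was the most abundant with 27.6 FPKM on average.

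On the marker lists, 1 of 8 tested adipocyte markers was a DEG (12.5%, against 11.5% of all genes tested). The median log2FC over the list was 0.08. That median was 0.16 without Apatinib replicate 2, 0.29 without Apatinib replicate 3, 0.19 without control replicate 2 and 0.28 without control replicate 3. The DEG, CFD, which encodes adipsin, rose from 2.59 to 4.86 CPM (log2FC 0.91, edgeR FDR 0.0287). CFD missed the threshold without Apatinib replicate 1, Apatinib replicate 2, control replicate 1 or control replicate 2 (edgeR FDR 0.0563 to 0.114). PNPLA2 (log2FC 0.21, edgeR FDR 0.357) and G0S2 (log2FC -0.29, edgeR FDR 0.454) were no DEGs. Without Apatinib replicate 2, the calls of this list were G0S2 (log2FC -0.71, edgeR FDR 0.0144) and LGALS12 (log2FC -0.67, edgeR FDR 0.0451), both lower. Of 12 tested progenitor markers, COL3A1 was the only DEG (8.33%, against 11.5% of all genes tested). The log2FC of COL3A1 was 1.18 (edgeR FDR 0.00955), and COL3A1 missed the threshold without control replicate 1 (edgeR FDR 0.0564). The median log2FC over the list was 0.33 (0.17 without Apatinib replicate 2). CD44 and ENG had a log2FC of 0.46 and -0.02, and CD44 passed without Apatinib replicate 3 (log2FC 0.55, edgeR FDR 0.0358).

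Markers of other cell types were read in the same way. Of 10 macrophage markers, 2 were tested, and edgeR called 0 of them, with 1 at an unadjusted p under 0.05 (CD14, log2FC -0.53, edgeR FDR 0.156). PTPRC, CD163, MRC1, AIF1 and TYROBP were at 0 counts, and the summed level of the list was 3.89 to 5.08 CPM with the drug against 5.02 to 6.83 CPM. CD68, a macrophage lysosomal protein that other cells also express, had 1 count in all, so it was not tested on counts. Its FPKM was 11.8, 8.56 and 6.78 in the treated samples against 3.30, 1.79 and 2.85 in the untreated ones, without overlap. By limma on log2(FPKM + 1) CD68 was higher with Apatinib (log2FC 1.46, FDR 0.0155). As for CEBPA, counts and FPKM differed here. Of 10 endothelial markers, 7 were tested, with VWF higher (log2FC 1.52, edgeR FDR 0.0386) and CDH5 lower (log2FC -1.22, edgeR FDR 0.0242), both under 3 CPM on average. DEGs were 28.6% of the 7, against 11.5% of all genes tested. VWF missed the threshold without Apatinib replicate 1, Apatinib replicate 3, control replicate 1 or control replicate 2 (edgeR FDR of up to 0.146), and CDH5 missed the threshold without Apatinib replicate 1, control replicate 1, control replicate 2 or control replicate 3 (edgeR FDR 0.0527 to 0.102). Their summed level was 59.3 to 75.7 CPM against 54.2 to 60.8 CPM, and EGFL7 and TIE1 were the most abundant per length. Of 8 epithelial markers, 4 were tested, with KRT8 (log2FC 0.71, edgeR FDR 0.0166) and CLDN3 (log2FC 1.16, edgeR FDR 0.0396) higher, while EPCAM and CDH1 averaged under 0.3 CPM. DEGs were 50% of the 4, against 11.5% of all genes tested. KRT8 missed the threshold without Apatinib replicate 1, control replicate 1 or control replicate 2 (edgeR FDR 0.0513 to 0.0957), and CLDN3 missed the threshold without Apatinib replicate 1, Apatinib replicate 3, control replicate 1, control replicate 2 or control replicate 3 (edgeR FDR 0.0630 to 0.150). The summed epithelial level was 127 to 160 CPM against 96.2 to 112 CPM, most of it KRT8 and KRT18, whose exons overlap on opposite strands. The part of these cell type markers in the changes of the 10 genes was not tested.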

How the data were processed

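RNA of 3 Apatinib-treated and 3 untreated control replicates of SW872 cells was analysed, grouped by their labels. The authors deposited raw counts per gene, as whole numbers, and FPKM values for each sample. The submitters' processing notes name STAR 2.7.1a, CASAVA and build hg19. The counting program, the annotation and the use of strand are not given in the sources used here. A further FPKM column, headed with a control's label and deposited with Apatinib replicate 1, was set aside (1 column).

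Counts were tested in R 4.3.3 with edgeR 4.0.16 (filterByExpr, TMM factors of 0.952 to 1.03, quasi-likelihood F test, Benjamini-Hochberg over 16290 genes). Depth was 17043314 to 22067558 counts per library. Log2 CPM used a prior count of 2. Intervals of 95% came from the fitted standard errors, and floors of 3 counts cover counting error only. P values measure the spread between these replicates, of which control replicates 1 and 2 lay closest (mean chi-square 2.27 against 18.2 to 44.5). With these controls summed 292 genes were DEGs, against 1866, so the FDRs depend on counting them as separate replicates. Functions were tested on simulated data.

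The 10 genes and all lists were chosen with earlier results of these data known. Genes of lists are named if called (up to 4 per direction by P value), as the 2 most abundant in mean FPKM or, with no call, by smallest P value. Exceptions are stated, and some genes that the rule names are not reported here. Likeness was Pearson's r of log2 CPM. Alternatives were DESeq2 1.42.0, RLE size factors, other filters, a replicate block, each replicate left out, control replicates 1 and 2 summed, and limma 3.58.1 for log-transformed FPKM with a pseudocount of 1 or 0.1, where the mean over samples exceeded 0.5. Promoters came from RefSeq (GRCh38.p14), gene overlaps from GENCODE 29, in which 52338 of the identifiers (90.6%) were found. Both differ from hg19, so the only positions given are those of the promoter windows, on their own build.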

Additional observations from a re-analysis of the deposited data

How the results depend on the processing

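With controls 1 and 2 summed, 292 genes were DEGs (1866 in the report), and limma on log2(FPKM + 1) and on log2(FPKM + 0.1) gave 796 and 810. Each of these settings called 0 of the 10 genes. CEBPD then had log2 fold changes of 0.77, 0.68 and 0.74 and LPL 0.89, 0.59 and 0.79, all short of the FDR threshold. CEBPB passed with DESeq2 (0.70), with no filter on low counts (0.71) and with the replicate block (0.63). The block changed no other call among the 10 genes, and the numbers did not pair the samples (correlations of deviations -0.259, 0.0808 and -0.220). With controls 1 and 2 summed, the DEGs were 0 of the RXR partners, 0 of the C/EBP partners, 2 of the other regulators, 0 of the coregulators, 2 of the PPAR targets, 0 of the adipocyte markers, 3 of the lipase genes, 0 of the endothelial and 0 of the epithelial markers. Both limma fits gave 0 C/EBP partners, 0 coregulators, 0 progenitor markers, 0 endothelial, 1 macrophage (CD68, higher) and 1 epithelial marker. C/EBP partners were 3 without a filter and 2 with the replicate block, and coregulators were 1 without a filter. Endothelial markers were 1 with at least 10 counts in every sample, and progenitor markers 4 by FDR alone. With 1 replicate left out, the number of DEGs ranged from 275 (without control replicate 1) to 2594 (without control replicate 3). Over the same fits it was 0 to 3 of the 10 genes, 0 to 5 RXR partners, 0 to 1 C/EBP partners, 2 to 11 other regulators, 0 to 2 coregulators, 2 to 10 PPAR targets, 0 to 2 adipocyte markers (1 higher in the report, 2 lower without Apatinib replicate 2), 3 to 6 lipase genes, 0 to 3 progenitor markers, 0 to 2 endothelial and 0 to 2 epithelial markers. Log2 fold changes ranged from 0.36 to 0.95 for CEBPB, 0.50 to 0.99 for CEBPD, 0.63 to 0.99 for LPL, -0.39 to -0.09 for FABP5, -0.0033 to 0.18 for PPARG and -0.045 to 0.16 for RXRA, where PPARG turned without Apatinib replicate 2 and RXRA without Apatinib replicate 1. No other direction among the 10 genes turned. Among the list genes named, DDIT3 ranged from -0.026 (without Apatinib replicate 2) to 1.12, and ENG from -0.11 to 0.11, above 0 without Apatinib replicate 3 (0.11) or control replicate 3 (0.043). The cause was not tested. At 0 counts, CEBPA and FABP4 were untested.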
